A study of Mus musculus with 48 samples.

Results

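Aqp3, Themis2, Pmp22, Zfp703, Folr1 and Porcn are 6 genes whose transcripts were high in mouse cells given AM580, a synthetic agonist of the retinoic acid receptor alpha. They were chosen by symbol for strong rises with AM580 at 24 h or 48 h, so their values in that experiment are a description: no p value is given for them there, and nothing is read from their calls. They are 6 of the 13682 gene symbols of the FPKM table (fragments per kilobase of transcript, scaled to library size) and 6 of the 22173 of the count table. The study searched for compounds that turn embryonic stem cells (ESCs) into cells like the somatic cells of the E12.5 female gonad (GSCLCs). The tests of the 6 genes rest on the later days and on the gonadal stages, while the rises that named them were those at 24 h and 48 h. Earlier results of these data were known at the choice, and cells of the later days also received AM580. These tests are therefore not independent of the choice. At 24 h and 48 h only other genes, of the retinoid pathway and related to the 6, were tested.

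The cells were C57BL/6 ESCs, described in the methods as female and kept in 2i and LIF medium on feeder cells, then seeded on fibronectin without 2i and LIF. Groups at 24 h and 48 h were Con (no compound), Vc (vitamin C), AM580, and V580 (both compounds together), each with 2 libraries. V580 cells were also collected on days 4, 6, 8 and 10 with 3 libraries each, beside 3 libraries of E12.5_GC, somatic cells separated from E12.5 female gonads. A count table held gonadal somatic cells at 3 fetal ages (E12.5, then E13.5, then E16.5) and of the 6-week ovary (P6w), 2 libraries per stage, with 12694769 to 22259044 counts per library. One 10x Genomics library held V580 cells of day 6. By the methods, E12.5 somatic cells are what passes a magnetic column that holds back SSEA1+ germ cells, a mixture of somatic types; whether the induced cells of these libraries were sorted is not given in the sources used here. The labels do not say that replicates came from separate cultures or animals, so that p values measure the spread between these libraries, which may be technical. The dose of AM580 is not given in the sources used here. In bulk libraries, fewer cells of a type and less RNA per cell cannot be told apart. No depth was given with the FPKM values.

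Retinoic acid enters the nucleus and binds receptors (Rara, Rarb, Rarg) that sit on DNA with an Rxr partner, and the bound pair turns on genes that include the cell's own machinery for storing and degrading retinoic acid, such as Cyp26a1. In the fetal ovary, retinoic acid is known for its part in the entry of germ cells into meiosis. The 6 genes do unlike things. Aqp3 is a membrane channel for water and glycerol. Themis2 is a signalling adaptor best known from B cells and macrophages. Pmp22 is a membrane protein with 4 transmembrane segments that is abundant in myelin. Zfp703 is a zinc finger corepressor. Folr1 is the membrane-anchored folate receptor alpha. Porcn is the enzyme of the endoplasmic reticulum that attaches the lipid Wnt proteins need to leave the cell.

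In GENCODE vM21 on GRCm38 all 6 are protein-coding genes. Aqp3 (ENSMUSG00000028435.8) lies at chr4:41092722-41098183 on the minus strand, and Themis2 (ENSMUSG00000037731.5) on the same chromosome and strand at chr4:132781843-132796387. Pmp22 (ENSMUSG00000018217.12) lies at chr11:63128982-63159547 on the plus strand. Zfp703 (ENSMUSG00000085795.8) lies at chr8:26977325-26981461 on the plus strand. Folr1 (ENSMUSG00000001827.12) lies at chr7:101858331-101870788 and Porcn (ENSMUSG00000031169.13) at chrX:8193848-8206525, both on the minus strand.

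Promoter windows from RefSeq on GRCm38.p6, 250 bases before to 50 bases after a start site, were found for 3 of the 6 genes (Aqp3, Themis2 and Pmp22, the last with 4 start sites) and not for Zfp703, Folr1 and Porcn. They are shown because retinoic acid receptors bind pairs of a short hexamer, and capitals mark every match, on either strand, to the hexamers AGGTCA and AGTTCA and GGGTCA and GGTTCA.
Aqp3, chr4:41098134-41098433, minus strand: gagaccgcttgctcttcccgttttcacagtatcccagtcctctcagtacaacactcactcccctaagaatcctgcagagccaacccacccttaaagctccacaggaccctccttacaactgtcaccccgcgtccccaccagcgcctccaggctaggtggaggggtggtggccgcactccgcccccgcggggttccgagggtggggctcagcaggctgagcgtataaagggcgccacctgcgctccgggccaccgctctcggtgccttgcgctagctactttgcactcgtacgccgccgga
Themis2, chr4:132796315-132796614, minus strand: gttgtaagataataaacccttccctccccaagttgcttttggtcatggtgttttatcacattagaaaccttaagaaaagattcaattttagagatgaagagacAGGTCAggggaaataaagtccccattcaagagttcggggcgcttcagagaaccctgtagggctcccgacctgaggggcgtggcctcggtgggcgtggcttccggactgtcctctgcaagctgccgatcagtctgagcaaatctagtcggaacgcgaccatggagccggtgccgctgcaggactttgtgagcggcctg
Pmp22, first start site, chr11:63128732-63129031, plus strand: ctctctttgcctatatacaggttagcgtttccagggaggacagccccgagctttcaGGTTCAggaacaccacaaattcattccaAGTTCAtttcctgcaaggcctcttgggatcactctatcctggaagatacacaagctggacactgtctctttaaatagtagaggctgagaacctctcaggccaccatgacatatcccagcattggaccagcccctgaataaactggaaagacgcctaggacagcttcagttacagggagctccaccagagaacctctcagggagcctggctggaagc

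The Aqp3 window held none of the 4 hexamers, and a TATAAA began 29 bases before its start site, a sequence that 8.32% of the 32851 windows in the table held on the gene's strand. The Themis2 window held AGGTCA 147 bases before the start site. The first Pmp22 window held GGTTCA 194 and AGTTCA 166 bases before the start site, both on the gene's strand. Of the other 3 Pmp22 windows, 2 held GGGTCA each. At least 1 of the 4 hexamers was present in 43.7% of all windows, so that its presence in 4 of these 6 windows is a description only. No window of the 3 genes held 2 of these hexamers as a direct repeat with a gap of 1, 2 or 5 bases, which 0.222%, 0.268% and 0.0974% of all windows did.

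The 6 genes fell into 3 patterns of timing under AM580. Aqp3 and Themis2 were high at 24 h and near the control level at 48 h. Zfp703 was the reverse, so that the label of an early gene does not hold for it: its level was close to the controls at 24 h and far above them at 48 h. Pmp22, Porcn and Folr1 were above the controls at both times.

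**Figure D1:**
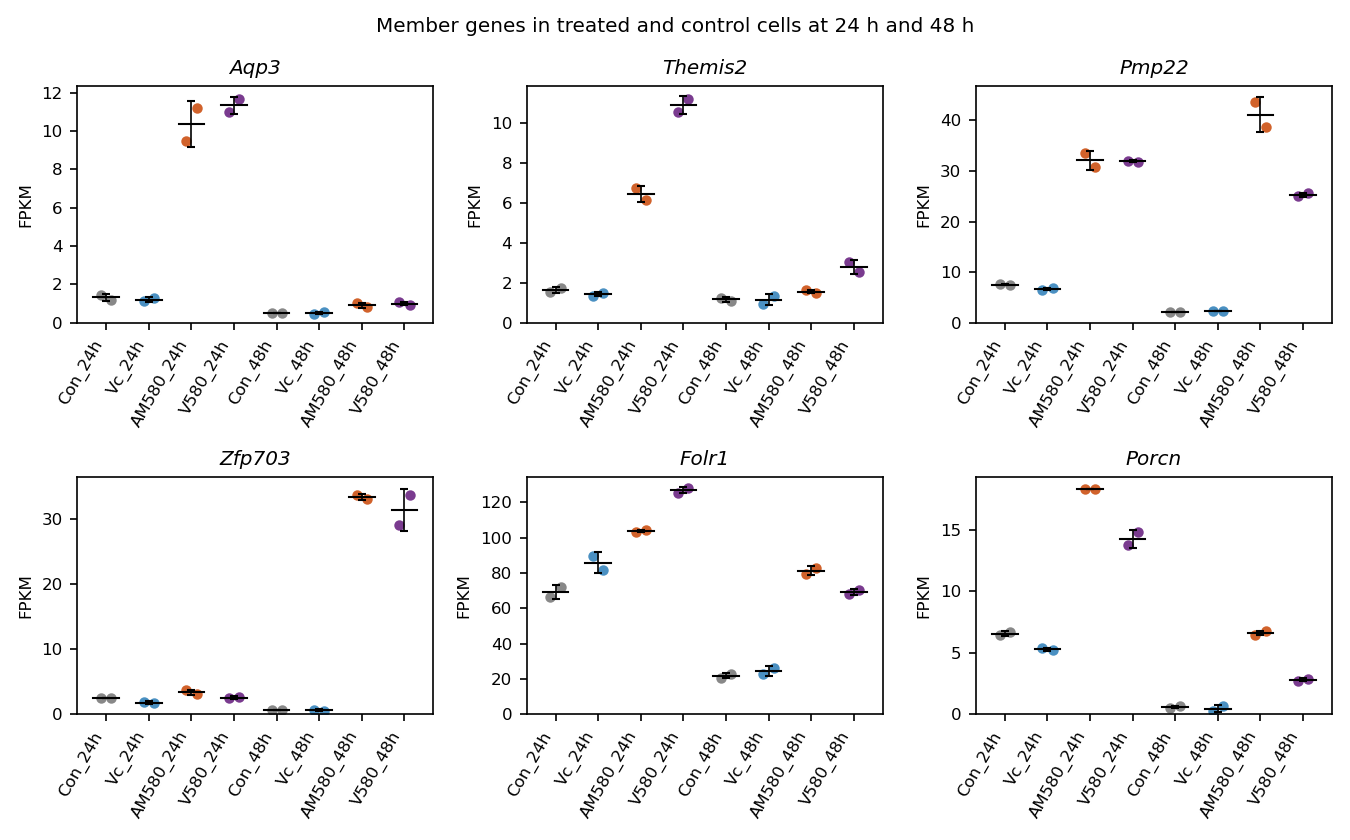
FPKM of each gene (vertical axis, linear, from 0) in the 2 libraries of Con, Vc, AM580 and V580 at 24 h and 48 h, with points for libraries, horizontal bars for group means and error bars for the SD. Aqp3 and Themis2 peak at 24 h in the AM580 and V580 groups, Zfp703 at 48 h, and the Con and Vc levels of most genes are lower at 48 h than at 24 h.

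Aqp3 measured 1.45 and 1.20 FPKM in the 2 Con libraries at 24 h, 9.50 and 11.2 FPKM with AM580, and 11.0 and 11.6 FPKM with V580. At 48 h it measured 0.523 and 0.519 FPKM in Con, 1.00 and 0.808 FPKM with AM580, and 1.07 and 0.928 FPKM with V580. The AM580 mean was thus 7.84-fold the Con mean at 24 h and 1.74-fold at 48 h, and the treated libraries lay above the Con libraries at both times. Within the AM580 cells the mean at 48 h was 11.4-fold under that at 24 h.

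Themis2 measured 1.52 and 1.73 FPKM in Con at 24 h and 6.72 and 6.15 FPKM with AM580. With V580 it reached 10.6 and 11.2 FPKM, above both AM580 libraries. At 48 h the Con libraries held 1.26 and 1.06 FPKM, the AM580 libraries 1.62 and 1.49 FPKM, and the V580 libraries 3.05 and 2.54 FPKM. Themis2 was the gene of the 6 with the most signal under V580 relative to AM580 alone, with 1.69-fold the mean at 24 h and 1.80-fold at 48 h and no overlap of libraries at either time.

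Zfp703 measured 2.49 and 2.50 FPKM in Con at 24 h, 3.68 and 3.11 FPKM with AM580 and 2.41 and 2.69 FPKM with V580, the last pair overlapping the Con libraries. At 48 h it measured 0.608 and 0.588 FPKM in Con, 33.8 and 33.2 FPKM with AM580 and 29.1 and 33.8 FPKM with V580. The 48 h means were 56.0-fold (AM580) and 52.6-fold (V580) the Con mean, the largest ratios among the 6 genes. Part of each ratio lies in the control, whose mean at 48 h was 4.17-fold under its mean at 24 h.

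Pmp22 measured 7.67 and 7.41 FPKM in Con at 24 h, 33.5 and 30.7 FPKM with AM580, and 32.0 and 31.7 FPKM with V580. At 48 h it measured 2.07 and 2.16 FPKM in Con, 43.6 and 38.7 FPKM with AM580, and 25.0 and 25.6 FPKM with V580. The AM580 and V580 libraries overlapped at 24 h but not at 48 h, where the AM580 mean was 1.63-fold the V580 mean.

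Porcn measured 6.41 and 6.72 FPKM in Con at 24 h, 18.4 and 18.4 FPKM with AM580, and 13.8 and 14.8 FPKM with V580. At 48 h Con held 0.520 and 0.633 FPKM, AM580 6.47 and 6.74 FPKM, and V580 2.73 and 2.90 FPKM. The 11.5-fold ratio of AM580 to Con at 48 h came with a control that was 11.4-fold lower than at 24 h: the AM580 libraries at 48 h overlapped the Con libraries at 24 h (means of 6.60 and 6.56 FPKM).

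Folr1 was the most abundant of the 6 genes in these cells, with 66.4 and 72.1 FPKM in Con, 103 and 104 FPKM with AM580, and 126 and 128 FPKM with V580, all at 24 h. At 48 h it measured 20.7 and 23.0 FPKM in Con, 79.4 and 82.9 FPKM with AM580, and 68.2 and 70.2 FPKM with V580. As for Porcn, the ratio to Con at 48 h (3.72-fold for AM580, a difference of 1.85 on the log2 scale) was larger than at 24 h (0.58 on that scale) while the level in the treated cells was lower.

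Vitamin C alone left the mean of each of the 6 genes within 1.40-fold of the Con mean. At 48 h the Vc and Con libraries of 5 genes overlapped, and Pmp22 differed by 1.07-fold. At 24 h only the Aqp3 libraries overlapped. The Vc libraries of Themis2, Pmp22, Zfp703 and Porcn lay under both Con libraries then, and those of Folr1 above them. The largest ratio of Vc and Con means in either direction at 24 h was 1.40-fold, for Zfp703 (1.91 and 1.67 FPKM with Vc). Its difference was -0.33 on the log2 scale, beside 0.33 with AM580. From 24 h to 48 h the levels in Vc cells were lower as in Con cells, by 11.8-fold for Porcn, 3.50-fold for Folr1, 3.01-fold for Zfp703, 2.91-fold for Pmp22 and 2.44-fold for Aqp3, while the Themis2 libraries overlapped.

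With the rule used for all genes (limma, adjusted p below 0.05 and at least 2-fold on the log2(FPKM + 1) scale), 4 of the 6 genes were above Con with AM580 at 24 h (Aqp3, Themis2, Pmp22 and Porcn), where 0.366% of 10644 genes were called higher. At 48 h 4 were above Con (Pmp22, Zfp703, Folr1 and Porcn), where 2.33% of genes were called higher. With V580 the same 4 and 4 genes passed, against 0.470% of genes at 24 h and 1.84% at 48 h. Nothing is read from these counts, since the genes were chosen on them, and AM580 and V580 share the Con libraries. None of the 6 lay close to the fold limit with AM580, which is a difference of 1 on the log2 scale. The nearest under it were Folr1 at 24 h with 0.58 and Aqp3 at 48 h with 0.32, and the nearest over it Porcn at 24 h with 1.36 and Folr1 at 48 h with 1.85. With V580, Porcn at 24 h sat on the limit (1.02), and Folr1 at 24 h (0.86) and Themis2 at 48 h (0.81) were the nearest under it.

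Markers of other states moved in the same libraries. The summed FPKM of 5 pluripotency markers lay between 3394 and 3694 in Con at 24 h and between 1764 and 1810 at 48 h, and between 2475 and 2637 with AM580 at 48 h. Its members went different ways at 48 h: Dppa5a, which makes up most of the sum, had a mean of 1216 FPKM in Con and 2280 FPKM with AM580, while Pou5f1 had 456 and 189 FPKM and Sox2 76.7 and 37.8 FPKM. The 2 measured of 5 placenta-associated markers, nearly all of it Trap1a, summed to 160 to 175 FPKM in Con and 148 to 149 FPKM with AM580 at 24 h. At 48 h they summed to 57.3 to 58.3 FPKM in Con, 108 to 110 FPKM with AM580 and 102 to 107 FPKM with V580. Folr1 was above Con with AM580 and with V580 at both times, and higher at 24 h than at 48 h. The summed FPKM of the 5 measured of 7 extraembryonic endoderm markers was 3.42 to 3.81 in Con, 17.4 to 17.8 with AM580 and 8.64 to 10.4 with V580 at 48 h. The summed FPKM of 4 Schwann and neural crest markers was 27.8 to 31.2 in Con and 4.62 to 5.11 with AM580 at 48 h, where Pmp22, a myelin gene, was high. At 24 h the 5 macrophage markers, with 1 listed at 0 in both libraries of each of these groups, summed to 42.6 to 44.2 FPKM in Con, 37.5 to 40.2 FPKM with AM580 and 29.0 to 33.0 FPKM with V580, where Themis2 was high. The part of these cell states in the levels of the 6 genes was not tested.

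The retinoid pathway itself was examined with a list of 28 genes, of which 17 passed the filter (1 FPKM or more in 2 or more of the 16 libraries). With AM580 4 of the 17 rose at 24 h and 9 at 48 h, where 0.366% and 2.33% of all genes were called higher. None of the 17 fell by the rule at either time, against 0.0376% and 0.902% of all genes called lower. The median difference of the list was 0.44 at 24 h and 1.30 at 48 h on the log2 scale, beside medians of -0.013 and -0.028 over all genes tested. Of the 17 genes, 3 (Aldh1a2, Rarb and Stra6) were under 1 FPKM in all 8 libraries of Con and Vc and passed the filter only through treated libraries, so that they could hardly be called lower. Among the other 14, 4 rose at 24 h and 7 at 48 h, none fell, and the medians were 0.32 and 1.02. The list was chosen with earlier results of these data known, and its counts support nothing on their own.

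The steepest rise was that of Cyp26a1, the enzyme that degrades retinoic acid, from a mean of 4.76 to 22.4 FPKM at 24 h and from 0.860 to 90.6 FPKM at 48 h (log2 difference 5.63, SE 0.090, limma adjusted p 2.13e-15). Dhrs3, a retinaldehyde reductase, rose from 1.01 to 15.9 FPKM at 48 h. It had also risen at 24 h, as had Nrip1, a corepressor of nuclear receptors, which went from 2.04 to 5.58 FPKM. The homeodomain factors Meis1 (0.347 to 4.69 FPKM) and Meis2 (0.838 to 6.40 FPKM) rose at 48 h. So did Stra6, the retinol uptake receptor, Rarb, and Crabp2, a cytosolic carrier of retinoic acid (12.2 to 31.5 FPKM). Rara itself, the receptor AM580 binds, differed by 0.44 at 24 h and 0.43 at 48 h on the log2 scale and was under the 2-fold limit. Rarg went from 57.2 to 33.4 FPKM at 48 h, a difference of -0.76 that also missed the limit.

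**Figure D2:**
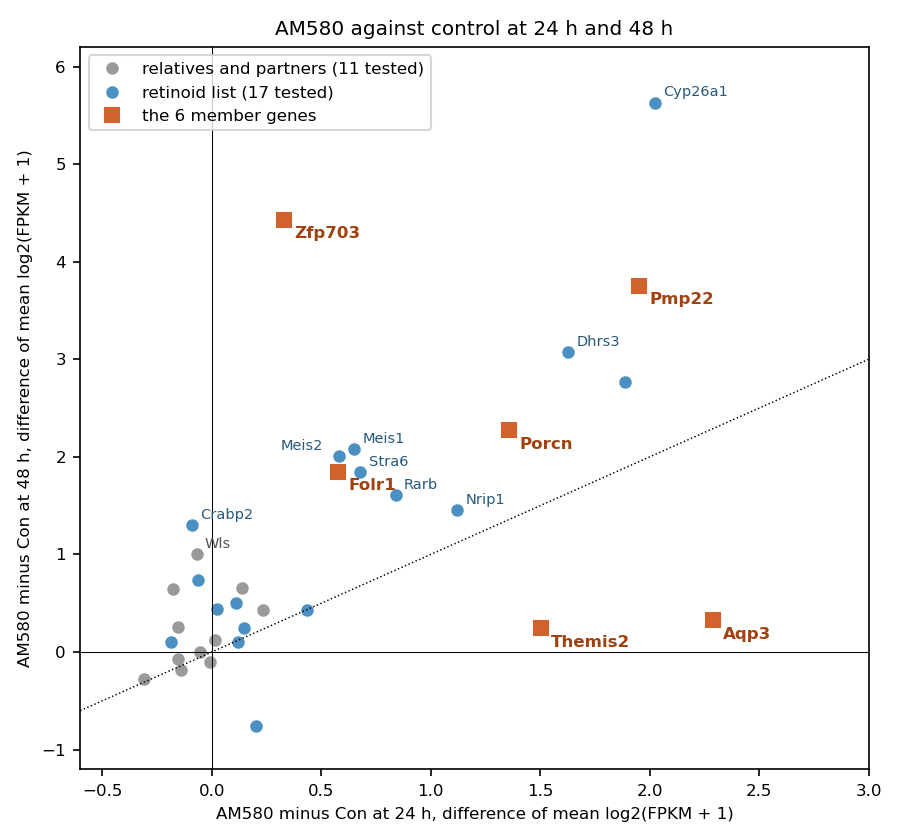
Difference of mean log2(FPKM + 1) between AM580 and Con at 24 h (horizontal axis) and 48 h (vertical axis) for the 6 genes (squares), 17 retinoid genes and 11 relatives or partners (circles); the dotted line marks equal differences. Aqp3 and Themis2 lie under the line, while Zfp703 lies far above it at 0.33 and 4.43, and Cyp26a1 is the highest point at 2.02 and 5.63.

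Relatives and partners of the 6 genes were mostly not called. Of 29 such genes, 11 passed the filter and none was called at 24 h, where 0.366% of all genes were called higher. At 48 h, where 2.33% were, 1 rose: Wls, the carrier that takes lipid-modified Wnt proteins from Porcn's compartment to the cell surface. Wls went from a mean of 1.70 to 4.41 FPKM (log2 difference 1.0032, SE 0.055, limma adjusted p 1.39e-09), just past the 2-fold limit, and without AM580 replicate 1 it was under that limit. The Pmp22 relatives Emp1, Emp2 and Emp3 differed by -0.18, 0.26 and -0.27 at 48 h. Zfp503, the relative of Zfp703, differed by 0.65 (0.704 to 1.67 FPKM). The folate carriers Slc19a1 and Slc46a1 differed by -0.11 and 0.43. The median of the list at 48 h was 0.12.

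Across the 13 groups of the FPKM table, the genes whose group means of log2(FPKM + 1) ran most like each of the 6 were found among 9044 genes with a mean of at least 5 FPKM in some group. For Aqp3 they were Kdm3b (Pearson's r 0.927), Ptp4a2 (0.889) and Atad2b (0.888), and for Themis2 Cnnm2 (0.922), Smyd4 (0.920) and Myo1f (0.911), all 6 highest at 24 h with AM580 or V580. For Pmp22 they were Tspan9 (0.967), Wdr91 (0.949) and the retinoid list gene Nrip1 (0.944), each highest on V580 day 4. For Zfp703 they were Ccdc107 (0.961), Rala (0.955) and Rcan1 (0.951). For Folr1 they were Ube2z (0.975), Itpk1 (0.973) and Srxn1 (0.968), and for Porcn they included Tet2 (0.931) and Kifc3 (0.902). Among the 6 genes themselves, Folr1 and Themis2 (0.843) and Pmp22 and Zfp703 (0.828) ran most alike, and Folr1 and Zfp703 least (-0.460). These values describe 13 groups that share experiments, and carry no p value.

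During the later V580 days, whose cells also received AM580, the 6 genes differed from each other again. Themis2 was under 0.1 FPKM from day 6 on. Among these days, Pmp22 and Zfp703 stood at their highest on day 4, Aqp3 on day 6 and Porcn on day 10. Folr1 was far under its level in the 24 h and 48 h libraries. Those libraries are of another experiment, so that time and experiment cannot be told apart in this difference. These tests used limma on log2(FPKM + 1) in 1 model of 15 libraries, for genes with 1 FPKM or more in 3 or more of them, with a call at an adjusted p below 0.05 and at least 2-fold; 5 of the 6 genes passed and Themis2 did not.

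**Figure D3:**
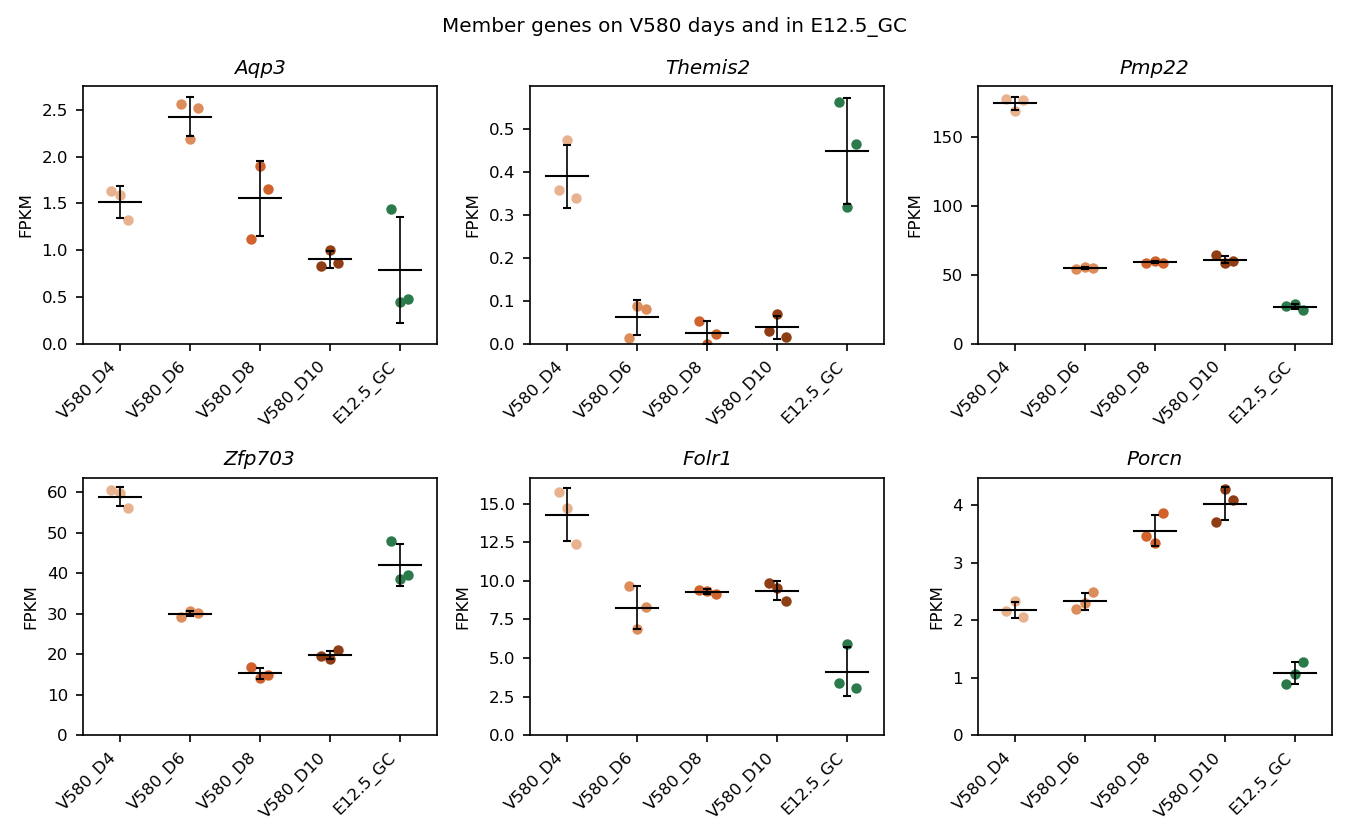
FPKM (vertical axis, linear, from 0) of each gene in the 3 libraries of V580 days 4, 6, 8 and 10 and of E12.5_GC, with points for libraries, horizontal bars for means and error bars for the SD. Pmp22 is highest on day 4, Zfp703 is above E12.5_GC on day 4 and under it from day 6 on, and Themis2 is under 0.1 FPKM from day 6 on.

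Pmp22 measured 178, 169 and 177 FPKM on day 4 and 54.3, 55.6 and 54.9 FPKM on day 6. It fell by 1.65 on the log2 scale between these days (SE 0.061, limma adjusted p 4.83e-11), and it was the only 1 of the 5 tested genes called, where 5.08% of 11512 genes were. It then stood at 58.7 to 60.1 FPKM on day 8 and 58.8 to 64.2 FPKM on day 10, with no call. The 48 h V580 libraries, of the other experiment in the same table, held 25.0 and 25.6 FPKM, which makes day 4 the highest of all 13 groups.

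Zfp703 measured 60.5, 59.9 and 56.2 FPKM on day 4, 29.3, 30.6 and 30.1 FPKM on day 6, 16.7, 14.2 and 14.8 FPKM on day 8, and 19.6, 18.9 and 21.0 FPKM on day 10. The groups did not overlap from day to day. The differences of -0.95 from day 4 to 6 (adjusted p 3.00e-07, limma) and -0.94 from day 6 to 8 (adjusted p 6.71e-07) stayed just under the 2-fold limit, and that from day 8 to 10 was 0.36 (adjusted p 0.00364). Without day 8 replicate 1 the step from day 6 to 8 was -1.0005 and past the limit. None of the 5 tested genes was called from day 6 to 8, where 2.55% of genes were, or from day 8 to 10, where 1.29% were. At an adjusted p below 0.05 without the fold limit, 3 and 1 of them passed, as did 4737 and 3969 of all 11512 genes.

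Porcn measured 2.15, 2.33 and 2.06 FPKM on day 4 and 3.71, 4.27 and 4.08 FPKM on day 10. Its largest step, from day 6 (2.19 to 2.49 FPKM) to day 8 (3.35 to 3.86 FPKM), was 0.45 on the log2 scale (SE 0.077, limma adjusted p 0.000321), under 2-fold. Folr1 measured 15.8, 14.7 and 12.4 FPKM on day 4 and between 6.87 and 9.89 FPKM on days 6 to 10, with a difference of -0.73 from day 4 to 6 (adjusted p 0.00215). Aqp3 measured 1.32 to 1.63 FPKM on day 4, 2.19 to 2.57 FPKM on day 6, 1.12 to 1.90 FPKM on day 8 and 0.835 to 1.00 FPKM on day 10, and no step passed the fold limit. Themis2 measured 0.357, 0.473 and 0.339 FPKM on day 4 and at most 0.0876 FPKM in the 9 libraries of days 6, 8 and 10, 1 of which listed it at 0.

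Against E12.5_GC, the gonadal cells that the induction was meant to resemble, the V580 cells carried more Pmp22 on every day. E12.5_GC held 27.2, 28.8 and 24.8 FPKM of Pmp22. The difference was 2.66 on day 4 (SE 0.061, limma adjusted p 3.20e-14), 1.0030 on day 6, 1.11 on day 8 and 1.15 on day 10. The day 6 value sat on the 2-fold limit and was under it without E12.5_GC replicate 3 (0.95) or day 6 replicate 2 (0.99).

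Zfp703 crossed over: at 47.8, 38.5 and 39.6 FPKM in E12.5_GC it was lower than on day 4 and higher than on days 6, 8 and 10, with no overlap of libraries. It was called lower than in E12.5_GC on day 8 (-1.40, adjusted p 1.26e-09, limma) and day 10 (-1.04, adjusted p 3.12e-08), and without E12.5_GC replicate 1 the day 10 difference of -0.94 missed the limit.

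Folr1 was 3.38, 5.92 and 3.05 FPKM in E12.5_GC and was called higher on day 4 (1.62, adjusted p 3.96e-07, limma), day 8 (1.05, adjusted p 5.25e-05) and day 10 (1.06, adjusted p 3.88e-05). The day 8 and day 10 differences dropped under the fold limit without E12.5_GC replicate 1 (0.96 and 0.97) or replicate 3 (0.90 and 0.91). Porcn, at 0.888 to 1.28 FPKM in E12.5_GC, was called higher on day 8 (1.14, adjusted p 7.55e-09, limma) and day 10 (1.28, adjusted p 1.55e-09). Its differences on day 4 (0.62) and day 6 (0.68) missed the limit. Porcn had passed the filter only with the V580 libraries, so that a call in the other direction was hardly open to it. The FPKM means were 2.02-fold and 2.16-fold that of E12.5_GC on those days, with no overlap of libraries. Aqp3 was 1.44 FPKM in E12.5_GC replicate 1 and 0.443 and 0.475 FPKM in the other two, and no day was called. Its day 6 difference of 0.98 became 1.23, past the limit, without replicate 1, and 1.03 without day 6 replicate 2. With a pseudocount of 0.1 in place of 1, which weighs changes of low genes more, Aqp3 was called higher on day 4 (1.04), day 6 (1.69) and day 8 (1.05), beside 0.54, 0.98 and 0.55. Its day 6 mean was 3.09-fold that of E12.5_GC, with no overlap of libraries. The day 6 difference of Folr1, 0.89, likewise passed the limit without E12.5_GC replicate 2 (1.13) or, narrowly, without day 6 replicate 2. With the pseudocount of 0.1, Folr1 (1.04) and Porcn (1.05) were also called higher on day 6. Themis2, not tested, was 0.318 to 0.561 FPKM in E12.5_GC, which overlapped day 4 and lay above all libraries of days 6 to 10.

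In counts, 2 of the 5 tested genes were called against E12.5_GC on day 4 (20.4% of all genes), 1 on day 6 (15.2%), 4 on day 8 (13%) and 4 on day 10 (16.4%). These 4 comparisons share the E12.5_GC libraries, and the calls on day 8 and day 10 include Porcn, which passed the filter only with the V580 libraries. Those libraries also held 1038 to 4435 FPKM of the 3 measured of 4 erythroid markers, which were at most 0.739 FPKM in the V580 libraries. The summed FPKM of 4 epithelial markers was 96.6 to 151 in E12.5_GC, 1440 to 1557 on day 4 and 528 to 587 on day 10. The summed FPKM of 5 gonadal somatic markers was 340 to 365 in E12.5_GC and 27.8 to 104 across the V580 days. The part of these cells in the differences was not tested.

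In the gonad itself, over stages, Folr1 rose early and stayed high, Porcn was highest in the adult ovary, Zfp703 declined, Pmp22 and Aqp3 peaked at E16.5, and Themis2 was scarce. These comparisons used edgeR's quasi-likelihood test on counts in 1 model of 8 libraries, and levels are given as CPM (counts scaled to the TMM-adjusted library size). All 6 genes passed the filter.

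**Figure D4:**
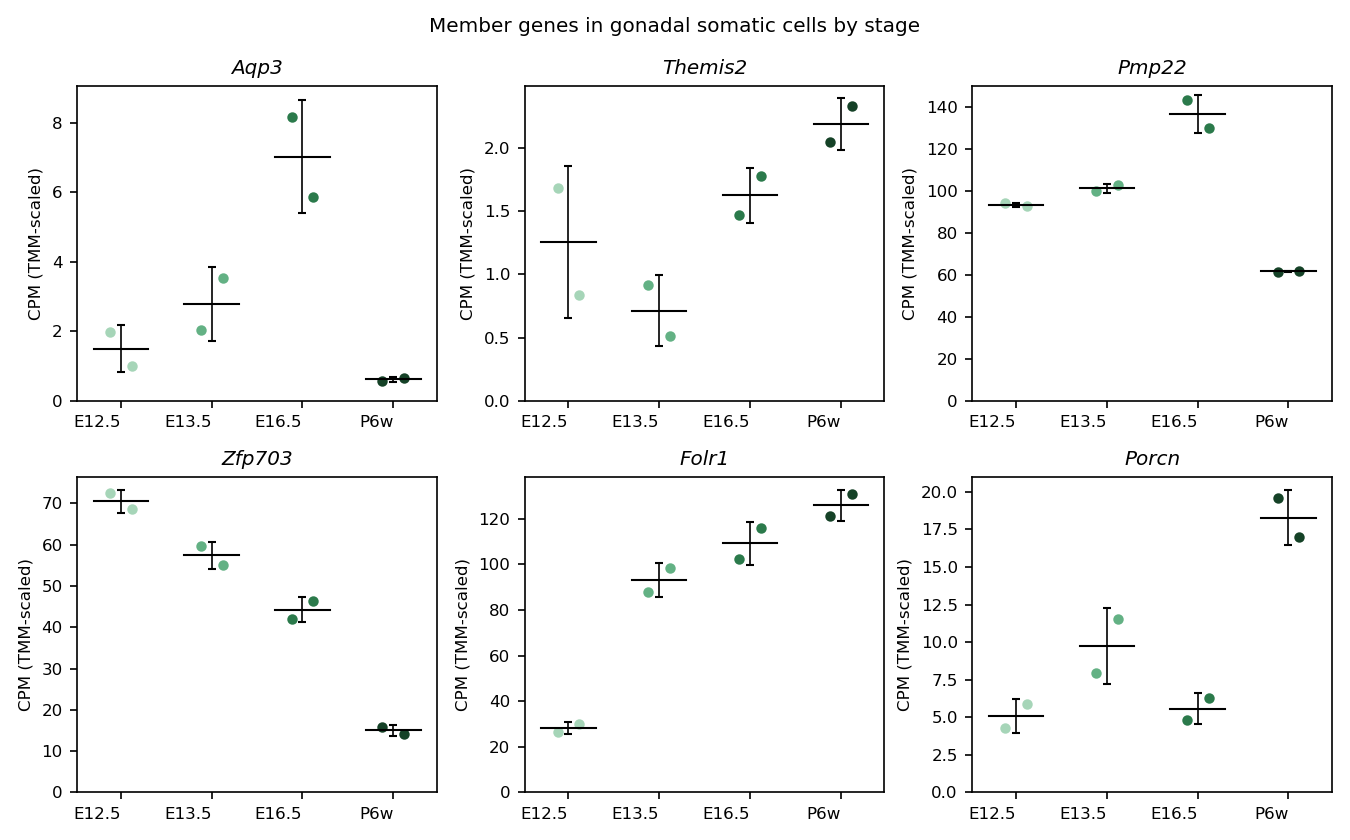
CPM (vertical axis, linear, from 0) of each gene in the 2 libraries of each stage, with points for libraries, horizontal bars for means and error bars for the SD. Folr1 is lowest at E12.5 and Zfp703 lowest at P6w, while Aqp3 is highest at E16.5.

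Folr1 measured 30.2 and 26.6 CPM at E12.5. One day later it measured 87.8 and 98.2 CPM, with 103 and 116 CPM at E16.5 and 121 and 131 CPM at P6w. It rose by 1.71 on the log2 scale from E12.5 to E13.5 (SE 0.132, edgeR adjusted p 8.08e-07), and its later steps of 0.23 and 0.21 were not called. Without E16.5 replicate 1 the step from E13.5 was called (0.32, adjusted p 0.0337), as was that to P6w without E16.5 replicate 2 (0.29, adjusted p 0.0461). From E12.5 to P6w the rise was 2.15 (adjusted p 3.37e-09).

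Zfp703 measured 68.5 and 72.5 CPM at E12.5, then 55.1 and 59.7 CPM (E13.5), 42.1 and 46.4 CPM (E16.5) and 14.1 and 15.9 CPM (P6w). It fell by 0.67 from E12.5 to E16.5 (adjusted p 0.00121, edgeR) and by 1.56 from E16.5 to P6w (adjusted p 3.33e-07). The step from E13.5 to E16.5 was -0.38 (adjusted p 0.0284) and was not called without either E13.5 library or without E16.5 replicate 1.

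Pmp22 measured 92.7 and 94.2 CPM at E12.5, then 99.9 and 103 CPM (E13.5), 130 and 143 CPM (E16.5) and 61.7 CPM in both P6w libraries. It rose by 0.43 from E13.5 to E16.5 (adjusted p 0.00502, edgeR; 0.0560 without E13.5 replicate 1) and fell by 1.15 from E16.5 to P6w (adjusted p 8.02e-07). Aqp3 was low, with 22 and 40 counts per library (E12.5), then 40 and 62 (E13.5), 189 and 96 (E16.5), and 7 and 8 (P6w). It rose by 2.24 from E12.5 to E16.5 (SE 0.392, edgeR adjusted p 0.000419) and fell by 3.50 from E16.5 to P6w (adjusted p 1.72e-05). The step from E13.5 to E16.5 was 1.35 (adjusted p 0.00672) and was lost without E13.5 replicate 1 (adjusted p 0.0703) or E16.5 replicate 1 (adjusted p 0.0600). The difference from E12.5 to E13.5 was 0.89 (adjusted p 0.0872, edgeR) and was called without E12.5 replicate 2 or E13.5 replicate 1, and that from E12.5 to P6w was -1.26 (adjusted p 0.0570) and was called without the filter on low counts or without E12.5 replicate 1.

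Porcn measured 4.30 to 5.88 CPM at E12.5, then 7.97 to 11.5 CPM (E13.5), 4.85 to 6.30 CPM (E16.5) and 17.0 to 19.6 CPM (P6w). The change from E12.5 to P6w was 1.84 (adjusted p 2.11e-05, edgeR) and that from E16.5 to P6w 1.72 (adjusted p 3.66e-05). A rise of 0.93 from E12.5 to E13.5 (adjusted p 0.00743) and a fall of 0.81 from E13.5 to E16.5 (adjusted p 0.0138) were each lost in 2 of 4 fits that left out a library. Themis2 had 9 to 34 counts per library and no call in the 5 comparisons, with differences between -0.79 and 1.16 and standard errors of 0.494 to 0.535, so that changes of this size were not detectable at this depth.

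In counts, 2 of the 6 genes were called from E12.5 to E13.5, where 45.9% of 16398 genes were, and 4 from E13.5 to E16.5 (54.1%). From E16.5 to P6w 4 were called (56.1%), from E12.5 to E16.5 4 (37.6%), and from E12.5 to P6w 4 (52.9%). These shares of 6 genes are not set apart from those of all genes. By the labels, E12.5, E13.5 and E16.5 replicate 1 carry a different lane mark from E16.5 replicate 2 and P6w, so that lane and stage cannot be told apart between E12.5 and P6w. Within the lane of P6w, with E16.5 replicate 2 alone, the differences to E16.5 were -3.23 for Aqp3, -1.63 for Zfp703, -1.08 for Pmp22 and 1.54 for Porcn. The adjusted p (edgeR) stayed below 0.05 for these 4 genes, in a fit where the lone E16.5 library is assumed to vary like the other groups. The summed erythroid markers were 2149 to 2513 CPM at E12.5, 6559 to 10222 CPM over the next stages and 193 to 214 CPM at P6w, and 5 macrophage markers, the background of Themis2, summed to 35.8 to 37.3 CPM at E12.5 and 99.4 to 101 CPM at P6w. Their part was not tested.

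E12.5 cells were measured in both tables, which allows levels per length to be set side by side. With exon lengths from GENCODE, the E12.5 count libraries gave a mean of 39.7 RPKM (reads per kilobase of exon, scaled to library size) of Pmp22, beside 24.8 to 28.8 FPKM in E12.5_GC. For Zfp703 they gave 20.2 and 21.4 RPKM beside 38.5 to 47.8 FPKM. For Folr1 they gave 11.6 and 13.1 RPKM beside 3.05 to 5.92 FPKM. The mean level from counts was thus 3.00-fold that in E12.5_GC for Folr1 and 0.495-fold for Zfp703. The tables were made separately, so these ratios were not tested. The Folr1 levels of V580 days 6 to 10 (6.87 to 9.89 FPKM) lie between the E12.5 values of the 2 tables. The Zfp703 level of day 6 (29.3 to 30.6 FPKM), under E12.5_GC, lies above the E12.5 value from counts, and that of day 10 (18.9 to 21.0 FPKM) overlaps it. The count table held no V580 library, and its RPKM are not the same measure as these FPKM. For both genes the order of V580 days and E12.5 cells thus rests on E12.5_GC alone.

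Within V580 day 6, Folr1 and Aqp3 were highest in the same cluster of cells and Zfp703, Porcn and Pmp22 each in a cluster of its own, while Themis2 was too scarce to place. The 10x library held 15412 barcodes, all distinct, of which 15315 were kept, with a median of 9281 UMIs (unique molecular identifiers) per cell. They were grouped into 11 clusters by genes other than the 6, and clusters are named by number and leading genes, since fine cell types were not assigned. With 1 library there is no test, and 95% intervals cover counting error only. Levels are UMIs per 10000 UMIs of a cluster. Free RNA, which adds UMIs to cells that do not express a gene, was not estimated, and no cluster is known to lack these genes. A share of cells with a UMI is therefore not a share of expressing cells, and the lowest level over clusters 0 to 8 is given for each gene placed (clusters 9 and 10 held 66 and 26 cells).

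**Figure D5:**
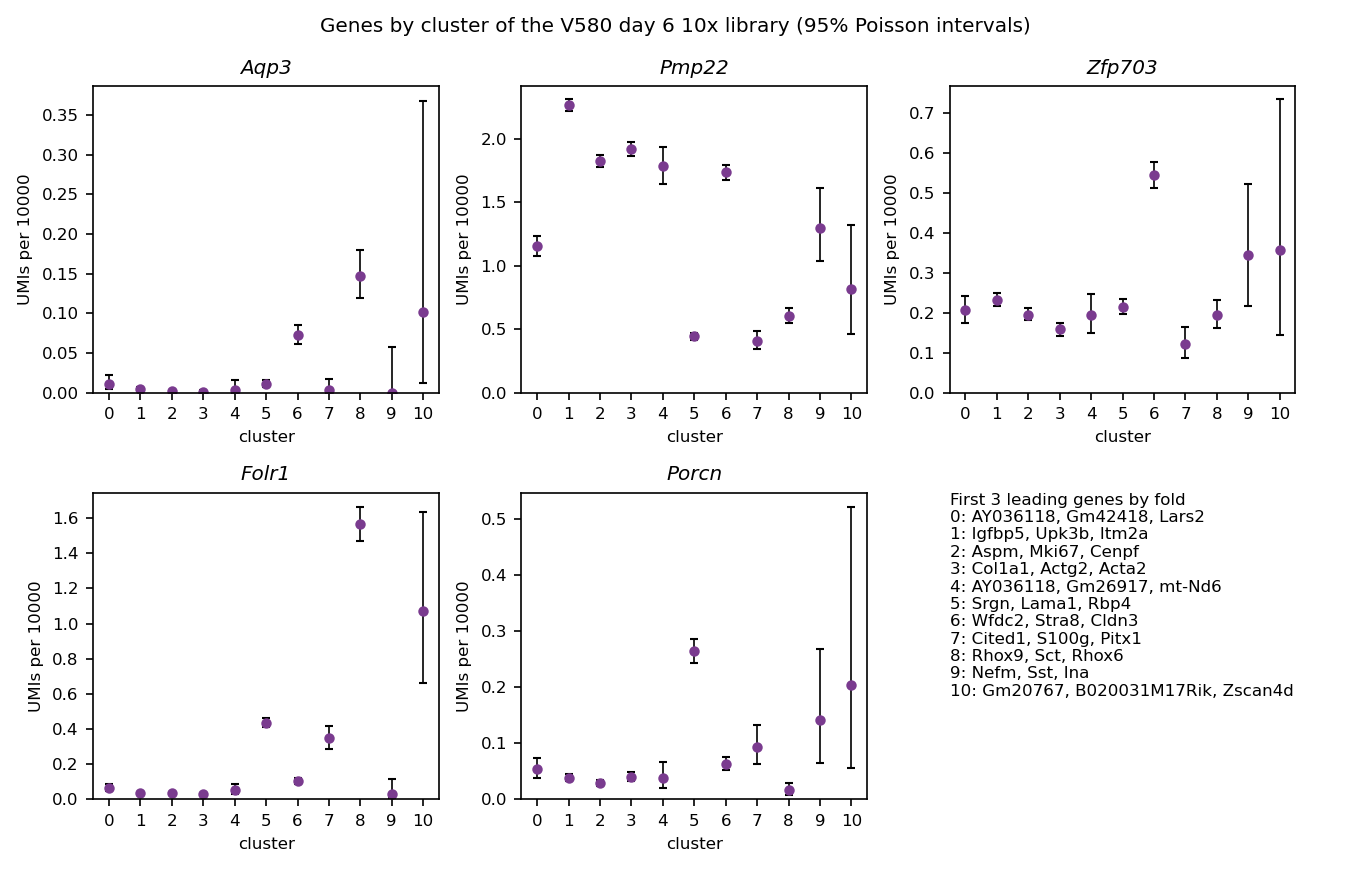
UMIs per 10000 (vertical axis, linear, from 0) of 5 of the genes in the 11 clusters of the V580 day 6 library (horizontal axis), with exact 95% Poisson intervals as bars; Themis2, with 6 UMIs in all, is left out. Folr1 and Aqp3 are highest in cluster 8, Zfp703 in cluster 6, Porcn in cluster 5 and Pmp22 in cluster 1.

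Pmp22 was the broadest, with 26420 UMIs, 1.62 per 10000 in all cells and at least 1 UMI in 49.3% of cells (exact binomial interval 48.5 to 50.1%). It was highest in cluster 1 (Igfbp5, Upk3b, Itm2a), at 2.27 per 10000 (2.23 to 2.32), and 1.92 (1.87 to 1.98) in cluster 3, led by Col1a1, Actg2 and Acta2. It was lowest, at 0.408 (0.341 to 0.484), in cluster 7 (Cited1, S100g, Pitx1), and at 0.444 (0.418 to 0.472) in cluster 5 (Srgn, Lama1, Rbp4), where 6 of 7 extraembryonic endoderm markers were at least 2-fold above the other cells.

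Zfp703 had 3948 UMIs, with at least 1 in 16.4% of cells. It was lowest in cluster 7, at 0.121 per 10000 (0.0857 to 0.165). It was highest in cluster 6 (Wfdc2, Stra8, Cldn3), at 0.544 per 10000 (0.512 to 0.578) and in 48.8% of its 1061 cells. In the small clusters 9 and 10 it was 0.345 (0.216 to 0.522) and 0.357 (0.143 to 0.735), intervals that overlap that of cluster 6. Among clusters of like depth, cluster 5 held 0.214 (0.196 to 0.234) at a median of 18228 UMIs per cell, and cluster 2 (Aspm, Mki67, Cenpf) 0.195 (0.181 to 0.211) at 17237 UMIs, beside 15998 UMIs in cluster 6. In cluster 6 all 4 epithelial markers were at least 2-fold above the other cells, and Stra8, a gene that retinoic acid is known to induce, was among its leading genes.

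Folr1 had 2789 UMIs in 7.78% of cells and was concentrated in cluster 8 (Rhox9, Sct, Rhox6), at 1.56 per 10000 (1.47 to 1.66), in 36.9% of 662 cells, although the median depth there was 2969 UMIs. In the 26 cells of cluster 10 it was 1.07 (0.662 to 1.64), an interval that overlaps that of cluster 8. It was 0.435 (0.409 to 0.462) in cluster 5, 0.346 (0.285 to 0.417) in cluster 7 and at most 0.0644 in clusters 0 to 4, with the lowest level, 0.0290 (0.0227 to 0.0366), in cluster 3. Cluster 8 had 3 of 5 placenta-associated and 4 of 4 epithelial markers at least 2-fold above the other cells. Aqp3 had 298 UMIs in 148 cells (0.966%) and was also highest in cluster 8, at 0.148 per 10000 (0.120 to 0.180), followed by cluster 6 at 0.0723 (0.0607 to 0.0853), if cluster 10, with 2 UMIs, is set aside. In clusters 1 to 4 it was between 0.00123 (cluster 3) and 0.00409 (cluster 1), and 70 cells held UMIs of both Aqp3 and Folr1.

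Porcn had 1208 UMIs in 6.01% of cells and was highest in cluster 5, at 0.264 per 10000 (0.244 to 0.285), in 30.2% of 1291 cells. Porcn in the small clusters 9 (0.141, 0.0645 to 0.268) and 10 (0.204, 0.0555 to 0.522) had intervals that overlap that of cluster 5. In clusters 1 to 4 it was at most 0.0392, in 0.964 to 5.65% of cells, and it was lowest in cluster 8, at 0.0154 (0.00737 to 0.0283), the cluster where Folr1 and Aqp3 were highest. Themis2 had 6 UMIs in 6 cells (0.0392%, exact binomial interval 0.0144 to 0.0853%), which is too few to place. For Aqp3, Folr1 and Porcn the highest cluster was at least 3 times the median cluster. For Pmp22 and Zfp703 it was 1.75 and 2.65 times. With a finer clustering (Leiden resolution 1.0 in place of 0.5) the highest cluster held 0.475 UMIs per 10000 of Aqp3, 0.503 of Porcn and 0.843 of Zfp703, each over 1.5 times the value above, and 4 genes in place of 3 had a highest cluster at least 3 times the median. The highest level of Folr1 stayed at 1.56 there while that of Aqp3 moved from 0.148 to 0.475. A shared highest cluster of Folr1 and Aqp3 is thus shown at resolution 0.5 only.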

How the data were processed

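The 6 genes and all gene lists were chosen with earlier results of these data known. The authors deposited whole-number gene counts for the 4 gonadal stages, UMI counts for 1 10x library (Cell Ranger) and FPKM for the treatments, V580 days and E12.5_GC. Submitters' notes name Trim Galore, FastQC, HISAT2, SAMtools, featureCounts, RSEM and mm10; no tool was tied to FPKM, and its depth is unknown. FPKM were tested with limma 3.58.1 (trend) on log2(FPKM + 1) in R 4.3.3, 1 model per experiment, which understates changes of low genes. Counts were tested with edgeR 4.0.16 (filterByExpr, TMM, quasi-likelihood); DESeq2 1.42.0 was an alternative. P values were adjusted by Benjamini-Hochberg over all genes. The steps were tested on simulated data. For 10x, barcodes under 200 genes or over 40% mitochondrial counts were dropped, and the rest scaled to 10000 and clustered in scanpy 1.11.5 (2000 variable genes, 20 components, 20 neighbours, Leiden 0.5), with no doublet step; 32158 of 32285 gene IDs matched symbols. The methods speak of 10x triplicates; 1 library was used here. List genes were named for the largest changes at 48 h among those called, or for their place in the list, and genes of like pattern as the top 3 by correlation; some of these genes are not reported here. A table with 10 sample columns that matched no sample was not used, and PGC libraries were not analysed here. Alternatives were another pseudocount, no filter, median scaling, no fold limit, a replicate block, each library left out, DESeq2, a length offset, and other cluster settings.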

Additional observations from a re-analysis of the deposited data

Results flagged for a closer look

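Zfp703 lay on opposite sides of E12.5_GC on different V580 days: every day 4 library was above the 3 E12.5_GC libraries (log2 difference 0.48), and every library of day 6 (-0.47), day 8 (-1.40) and day 10 (-1.04) was below them; the difference between these differences is the change between days, given above with its own tests. Pmp22 in Vc cells was below both Con libraries at 24 h (-0.17) and above both at 48 h (0.070), a difference between times that was not tested.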

How the results depend on the processing

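Of 689 values of a gene in a comparison of days or stages under an alternative, 621 kept their direction and side of the threshold, 34 gained a call, 25 lost one and 9 changed sign; none of the calls was changed by DESeq2 or by a replicate block (65 comparisons), with which 1 gene was called from day 4 to day 6 and 4 from E16.5 to P6w as without it. The numbers are not said to mark a shared source. Same-numbered libraries correlated in their deviations at -0.431 to 0.386 for days, -0.424 to 0.209 for treatments and -0.040 to 0.067 for stages; all 3 pairs were over 0.1 for E12.5_GC and day 4 (0.115 to 0.344) and for no other 2 groups of the days. On day 6 against E12.5_GC, 4 genes in place of 1 were called with a pseudocount of 0.1, and 0 with median scaling. The pseudocount of 0.1 also called more of all genes there. Without the fold limit 5 were called there, as were 7718 of all 11512 genes. Without that limit 4 genes were called from day 4 to 6 (5167 of all genes), 3 from day 6 to 8 (4737) and 1 from day 8 to 10 (3969). On day 4 against E12.5_GC 5 were called (8238 of all genes). With a 2-fold limit 1 was called from E12.5 to E13.5 (2785 of all 16398 genes), 1 from E13.5 to E16.5 (4285) and 2 from E12.5 to E16.5 (2752). With a library left out, the number called ranged from 0 to 2 on day 6 and 2 to 4 on day 10 against E12.5_GC, 0 to 1 from day 6 to 8, 1 to 3 from E12.5 to E13.5 and 1 to 4 from E13.5 to E16.5. The Folr1 difference from day 8 to 10 changed sign with median scaling (-0.0023) and with libraries left out (-0.029 to 0.053), and, left out, so did Porcn (-0.090 to 0.36) and Themis2 (-0.060 to 0.94) from E12.5 to E16.5; with a length offset, Porcn there (-0.036) and Pmp22 from E12.5 to E13.5 (-0.22) did. None of these was a call. Without the fold limit 10 and 14 retinoid genes were higher at 24 h and 48 h and 1 lower at 48 h, and of the relatives 1 was lower at 24 h, 5 higher and 1 lower at 48 h; with a pseudocount of 0.1, 2 relatives were higher at 48 h, and with a library left out 0 to 1. Over all genes, a pseudocount of 0.1 called 1054, 599 and 346 between successive days in place of 585, 293 and 149, no fold limit 3969 to 8238 in the 7 day comparisons, and a 2-fold limit 2752 to 5339 in the 5 stage comparisons; E16.5 against E12.5 ranged from 3814 to 6569 with a library left out, in place of 6160. The causes were not tested.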
